A study of Mus musculus with 24 samples.

Results

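The insulin-like growth factor (IGF) family was followed through the hippocampal RNA of 12 mice. Its members here are 10 genes chosen by name, 2 ligands (Igf1 and Igf2), 2 receptors (Igf1r and Igf2r) and 6 binding proteins (Igfbp2 to Igfbp7), out of the 55471 genes in the count table. All 10 were found by their Ensembl identifiers, and all 10 passed the filter on low counts in every comparison. The mice were adult females, 3 to 6 months old, on a background the labels give as C57BL/6 and the study's methods as C57BL/6J, in 4 groups of 3. CBP-ifKOs carry a floxed Crebbp gene and a tamoxifen-inducible Cre recombinase (creERT2) under the Camk2a promoter. CBP, a transcriptional coactivator and lysine acetyltransferase, is thereby removed in excitatory neurons of the adult forebrain. Control littermates lack the Cre transgene, carry the floxed alleles and received tamoxifen as well. Mice of each genotype were kept in standard cages (SC) or in environmental enrichment (EE) for 1 month. The comparisons ask which transcripts of the family depend on CBP, which respond to EE, and whether the response to EE depends on the genotype. Cells other than excitatory neurons keep CBP in this model. In RNA of the whole hippocampus, fewer cells of a type and less RNA per cell cannot be told apart.

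IGF1 and IGF2 are secreted peptides that activate the tyrosine kinase receptor IGF1R, which signals through insulin receptor substrates, PI3K and AKT to support growth, survival and synaptic function of neurons. IGF2R, the cation-independent mannose 6-phosphate receptor, takes IGF2 to lysosomes and also sorts lysosomal enzymes. Binding proteins hold the ligands outside the cell, where they prolong their life, block their access to receptors or deliver them once proteases such as pappalysins and HTRA1 have cut them. In the brain, IGF2 is made chiefly by the choroid plexus, the meninges and vessels, while IGF1 also comes from the blood, interneurons and microglia.

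Igfbp4 and Igfbp5 were the members whose transcripts differed most clearly between genotypes, in opposite directions. CBP acts at promoters and at enhancers, and the study found the largest loss of the histone mark H3K27ac at putative enhancers. Only the sequence upstream of the start sites of both genes (RefSeq, GRCm38.p6) is shown, 5′ to 3′ on the strand of the gene. Enhancers were not examined. Capitals mark TATAAA, the TATA box letters, in Igfbp4 (plus strand, chr11:99040994-99041243) and the A/T-rich box TATTTAA in Igfbp5 (minus strand, chr1:72874885-72875115).
Igfbp4: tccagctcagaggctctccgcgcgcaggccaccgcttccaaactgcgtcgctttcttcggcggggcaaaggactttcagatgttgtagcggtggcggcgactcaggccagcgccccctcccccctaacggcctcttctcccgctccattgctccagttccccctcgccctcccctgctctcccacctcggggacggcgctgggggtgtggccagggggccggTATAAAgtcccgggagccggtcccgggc
Igfbp5: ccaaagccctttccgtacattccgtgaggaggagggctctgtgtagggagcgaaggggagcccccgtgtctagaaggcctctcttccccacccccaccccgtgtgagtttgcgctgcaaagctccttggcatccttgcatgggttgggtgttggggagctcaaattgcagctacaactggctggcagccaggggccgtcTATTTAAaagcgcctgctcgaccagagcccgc
The Igfbp4 sequence holds 22 CpG dinucleotides in 250 bases and the Igfbp5 sequence 10 in 231. In the Igfbp4 sequence TATAAA begins 28 bases before the RefSeq start (position -28), and in the Igfbp5 sequence TATTTAA begins at position -51. Both positions count from the RefSeq start. For Igfbp5, 19 bases between the last printed letter and that start lie inside the Ensembl gene and are not printed. Searched on both strands in the 250 bases before each of 32851 RefSeq starts, TATAAA was found in 12.4% and TATTTAA, chosen after the Igfbp5 sequence was seen, in 4.18%. The half-site of the cAMP response element, TGACG, is the short form of the site for CREB, the factor that recruits CBP. It was found in 17.8% of these windows, and the GC box GGGCGG in 32.7%. RefSeq lists 14 starts for the 10 members, and TGACG stood upstream of 2 members, Igf2 and Igf2r. It was not among the letters of the Igfbp4 and Igfbp5 windows, and GGGCGG was not either. These matches describe the sequence and are no evidence of binding.

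The libraries held 26874015 to 27971488 counts in control mice and 28582210 to 37448388 in CBP-ifKOs. In the CBP-ifKO libraries no count was odd, whereas 54.0% to 55.1% of the nonzero counts of a control library were. All 148570 nonzero CBP-ifKO counts were even, which would follow if reads were counted 2 times. In that case these totals overstate the reads, and the CBP-ifKO libraries cannot be called deeper. This feature goes with genotype in every library, so it cannot be separated from genotype. With the CBP-ifKO counts divided by 2, the count of members past the threshold and each member's side of it were the same in every comparison. Levels are CPM, which are counts scaled to a common library total, after TMM normalization, which corrects for the composition of each library. Crebbp, the targeted gene, lay between 70.7 and 81.9 CPM in SC-housed controls and between 50.0 and 51.5 CPM in SC-housed CBP-ifKOs. In EE it lay between 69.6 and 77.1 CPM in controls and between 44.5 and 48.3 CPM in CBP-ifKOs. Every CBP-ifKO was thus below every control, as the labels have it. The defining transcripts of excitatory neurons, Slc17a7 and Camk2a, were abundant in every group, at means of 1239 to 1281 and 3917 to 4219 CPM. One library stood apart. EE-housed control replicate 1 had 1291 CPM summed over 9 choroid plexus markers, against 40.6 to 70.4 in the other 11 libraries, and the member values that it moved most are also given without it.

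Between genes, levels can be compared only per length, as CPM per kilobase of exons. In SC-housed control mice, Igfbp5 was the member with the highest level per length, 36.5 ± 3.77 CPM per kb (SD, n = 3), followed by Igfbp4 with 20.1 ± 1.57. Neither range overlapped the next. Igfbp7, a distant relative that binds IGFs weakly, had 8.63 ± 1.35 CPM per kb, and Igfbp2, a binding protein made by astrocytes and choroid plexus, had 8.58 ± 1.76. Igfbp6, which prefers IGF2, had 6.98 ± 0.562 CPM per kb and Igfbp3, the main carrier of IGFs in blood, 6.96 ± 1.33. The receptors followed, with 5.01 ± 0.811 CPM per kb for Igf2r and 4.62 ± 0.458 for Igf1r. From Igfbp7 down to Igf1r, each range overlapped that of its neighbour, so the order of these 6 transcripts is not fixed by 3 mice. The ligands came last and apart from the rest, Igf1 at 0.856 ± 0.0278 and Igf2 at 0.110 ± 0.0730 CPM per kb.

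**Figure D1:**
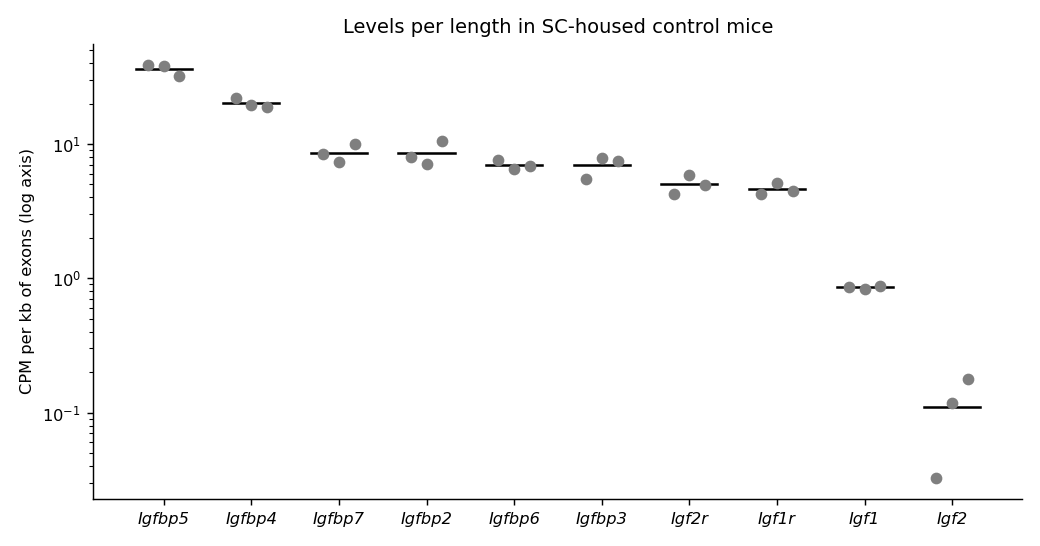
Level per length of the 10 family members in the 3 SC-housed control mice, in CPM per kilobase of exons on a log axis. Points are mice and black lines are means, and Igfbp5 and Igfbp4 lie above the other members while Igf1 and Igf2 lie below them.

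Both ligand transcripts were scarce. Igf1 (chromosome 10, 87858265 to 87937042, plus strand of GRCm38) had 8.49, 8.19 and 8.74 CPM in the 3 SC-housed controls and 8.90, 6.85 and 7.94 CPM in the 3 SC-housed CBP-ifKOs. In EE it had 8.15, 8.68 and 7.97 CPM in controls and 8.52, 8.96 and 9.04 CPM in CBP-ifKOs. The groups overlapped, and the 12 mice lay between 6.85 and 9.04 CPM. The genotype change of Igf1 on the log2 scale was -0.10 (SE 0.121) in SC and 0.11 (SE 0.107) in EE, with adjusted p-values of 0.697 and 0.64 in edgeR's quasi-likelihood test.

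Igf2 (chromosome 7, 142650766 to 142666816, minus strand), an imprinted gene, had 0.186, 0.680 and 1.02 CPM in SC-housed controls and 0, 0.208 and 1.16 CPM in SC-housed CBP-ifKOs. In EE it had 0.587, 0.116 and 0.621 CPM in controls and 0.620, 0.587 and 0.528 CPM in CBP-ifKOs. These levels rest on 0 to 44 counts per library. The 0 in SC-housed CBP-ifKO replicate 1 allows up to 0.0911 CPM of the library total by counting error alone (3 counts), or 0.182 CPM if reads were counted 2 times. The ranges of the groups overlapped in both housings, a difference did not pass edgeR's test (adjusted p = 0.845 in SC and 0.7 in EE), and no fold is given. Of the 5723 exonic bases of Igf2, 3694 overlap Gm49394 on the same strand or Igf2os on the opposite strand, so its counts are also uncertain in their source.

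The receptor transcripts had higher CPM than the ligands. Igf1r (chromosome 7, 67952827 to 68233668, plus strand), the signalling receptor, had 71.4, 86.2 and 75.1 CPM in SC-housed controls and 68.8, 61.1 and 66.0 CPM in SC-housed CBP-ifKOs. The EE-housed mice had 67.5, 81.0 and 65.6 CPM in controls and 60.8, 62.8 and 60.9 CPM in CBP-ifKOs. Every CBP-ifKO lay below every control of the same housing, but neither change passed the test. The log2 fold change was -0.25 (SE 0.0753, adjusted p = 0.0804 from edgeR) in SC and -0.20 (SE 0.0777, adjusted p = 0.17) in EE. In SC it passed with DESeq2 (adjusted p = 0.0346), without a filter on low counts (0.00994) and without control replicate 1 (log2 fold change -0.30, adjusted p = 0.0497), and in EE without a filter (0.0426). Non-overlap of 3 against 3 mice was common, at 25.9% of the 17532 genes tested in SC and 25.3% of the 17625 tested in EE. The summed level of 5 astrocyte markers in CBP-ifKOs was 92.6% of the control mean in SC and 89.8% in EE, without overlap in either housing, and its part in the Igf1r values was not tested. None of the 5 passed edgeR's test, and their medians were -0.09 and -0.06. Slc1a3, a glutamate transporter, had -0.13 in SC and -0.28 in EE (adjusted p = 0.346 and 0.0555). In the same order, Gfap had -0.16 and 0.01, Aqp4 -0.09 and 0.01, Aldh1l1 0.14 and -0.18, and Gja1 -0.05 and -0.06. These markers were named after their values were seen.

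Igf2r (chromosome 17, 12682406 to 12769664, minus strand) had 39.3, 54.4 and 46.4 CPM in SC-housed controls and 50.7, 53.5 and 56.4 CPM in SC-housed CBP-ifKOs. With EE the values were 44.9, 56.5 and 46.2 CPM in controls and 48.3, 58.7 and 45.3 CPM in CBP-ifKOs. The groups overlapped in both housings. Its genotype change was 0.20 (SE 0.0986, adjusted p = 0.285 from edgeR) in SC and 0.06 (SE 0.107, adjusted p = 0.829) in EE, or -0.01 in EE without control replicate 1. Without SC-housed control replicate 2, the highest of its group, the SC value was 0.32 with an adjusted p of 0.0244.

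**Figure D2:**
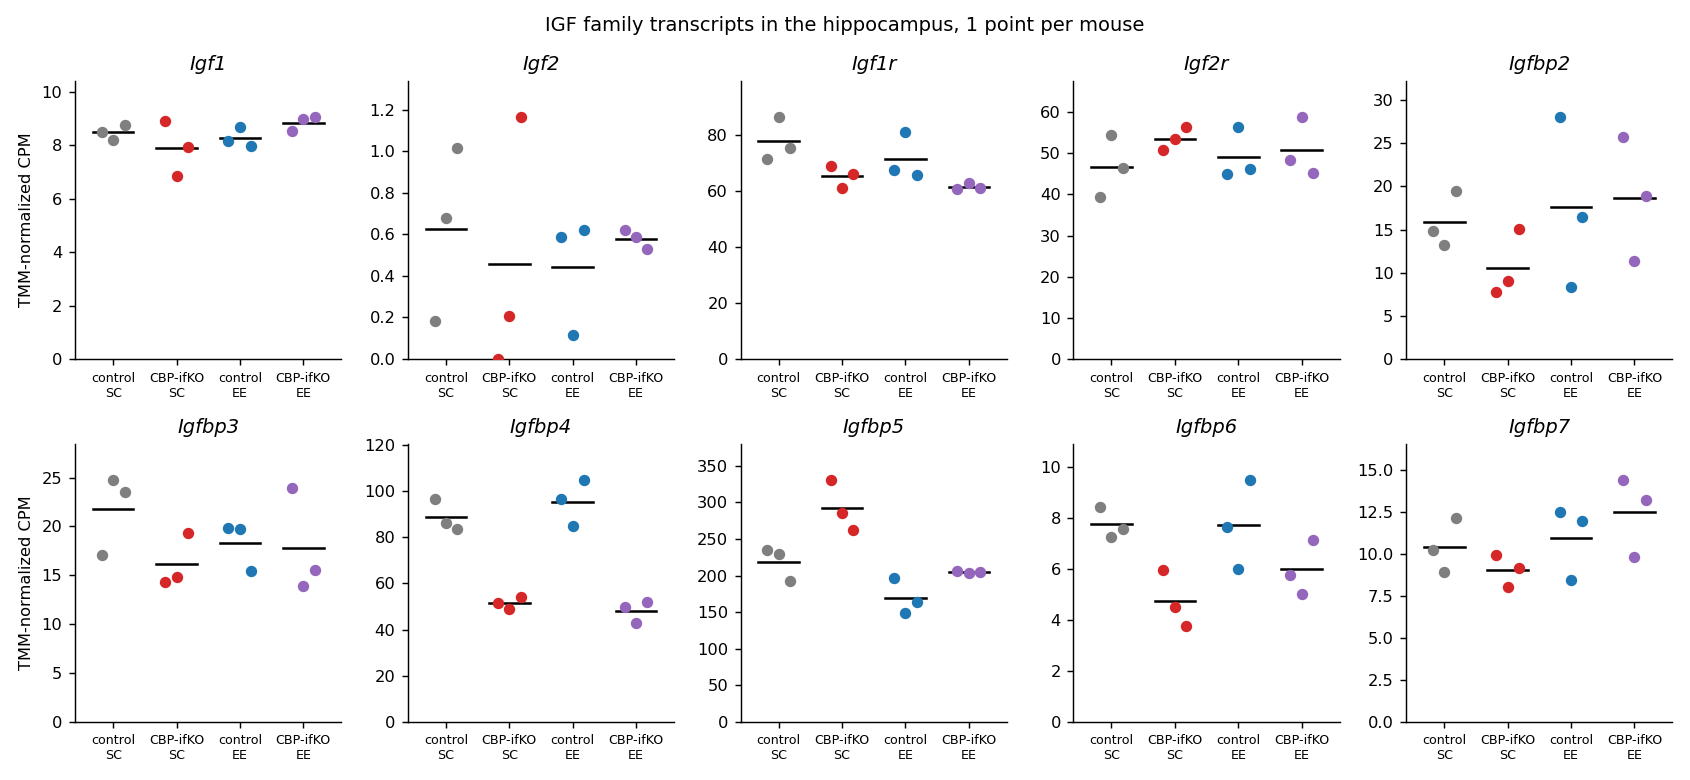
TMM-normalized CPM of each family member in the 4 groups, with 1 point per mouse and a line at the group mean, each panel on its own linear axis from 0. Igfbp4 is lower in all 6 CBP-ifKOs than in all 6 controls, and Igfbp5 is highest in SC-housed CBP-ifKOs.

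Igfbp4 was the clearest genotype difference of the family, with transcript levels in CBP-ifKOs at 0.58 times those of controls in SC and 0.51 times in EE. IGFBP4 binds both ligands and inhibits their action until the pappalysin PAPP-A cleaves it. The gene (chromosome 11, 99041244 to 99054392, plus strand) had 96.7, 86.1 and 83.6 CPM in SC-housed controls and 51.3, 48.9 and 54.0 CPM in SC-housed CBP-ifKOs. The values in EE were 96.8, 84.9 and 104.9 CPM in controls and 50.0, 42.9 and 51.9 CPM in CBP-ifKOs. No control mouse lay below 83.6 CPM and no CBP-ifKO above 54.0. The log2 fold change was -0.79 (SE 0.0675, adjusted p = 9.16e-05 from edgeR) in SC and -0.98 (SE 0.0927, adjusted p = 0.000326) in EE. The difference between these changes was -0.20 (SE 0.122), with an adjusted p of 1 in the interaction test over 18251 genes. Igfbp4 is on the list of decreased genes that the study drew in part from the same SC-housed mice, so the SC value is not independent evidence of that list's direction, while the EE-housed mice did not enter it.

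Marker sums of 3 cell types were also lower in CBP-ifKOs without overlap in both housings, but by less. Summed over 6 interneuron markers, CBP-ifKOs had 91.5% of the control mean in SC and 92.7% in EE. Over 6 microglia markers they had 94.8% and 90.3%, and over 5 astrocyte markers 92.6% and 89.8%. Their part in the Igfbp4 difference was not tested. Single markers of these lists were mixed. Of the interneuron markers 1 of 6 passed, Sst, which fell by 0.35 in SC (adjusted p = 0.0324 from edgeR), with list medians of -0.09 in SC and -0.06 in EE, while Vip had 0.17 and 0.26 (adjusted p = 0.294 and 0.145). None of the microglia markers passed, with medians of -0.12 and -0.15. Of the 6 excitatory neuron markers 2 passed in each housing, and the list medians were -0.08 in SC and -0.12 in EE. Wfs1, enriched in CA1 pyramidal cells, fell by 0.72 in SC and by 0.999 in EE on the log2 scale, and Nrgn, encoding the calmodulin-binding protein neurogranin, by 0.44 and 0.58. Their adjusted p-values in edgeR were 0.0049 and 0.00322 in SC and 0.000828 and 0.0015 in EE. Sst, Vip, Wfs1 and Nrgn were named after their values were seen. The other 4 excitatory neuron markers lay between -0.19 and 0.05 in SC and between -0.15 and -0.02 in EE. The summed level of the 6 excitatory neuron markers overlapped between genotypes, at 97.8% of control in SC and 89.6% in EE. Most of that sum is Camk2a, with a mean of 4092 of 6578 CPM in SC-housed controls. Its promoter also drives the Cre transgene.

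Igfbp5 moved the other way. IGFBP5 is the most conserved of the binding proteins, binds to extracellular matrix and is made by neurons as well as by other cells. The gene (chromosome 1, 72857932 to 72874884, minus strand) had 234, 229.8 and 193 CPM in SC-housed controls and 331, 285 and 262 CPM in SC-housed CBP-ifKOs. In EE it had 197, 149 and 163 CPM in controls and 206, 204 and 205 CPM in CBP-ifKOs. Within each housing, every CBP-ifKO lay above every control. The log2 fold change was 0.42 (SE 0.0901, adjusted p = 0.0211 from edgeR) in SC, a rise of 1.34 times, and 0.28 (SE 0.0892, adjusted p = 0.105) in EE, which did not pass. In EE it passed with DESeq2 (adjusted p = 0.0252) and without a filter on low counts (0.00736). The SC call was lost without SC-housed control replicate 3 (adjusted p = 0.0619), CBP-ifKO replicate 1 (0.0883) or CBP-ifKO replicate 2 (0.0669). Without EE-housed control replicate 1, the library with the choroid plexus transcripts, the EE change was 0.40 with an adjusted p of 0.0101. Igfbp5 is on the study's list of increased genes, to which the limit given for Igfbp4 applies.

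The ratio of Igfbp5 to Igfbp4 counts, which needs no scaling between libraries, separated the genotypes in both housings. It was 2.42, 2.67 and 2.31 in SC-housed controls and 6.45, 5.83 and 4.85 in SC-housed CBP-ifKOs. In EE it was 2.03, 1.76 and 1.56 in controls and 4.12, 4.76 and 3.95 in CBP-ifKOs. The lowest CBP-ifKO thus had a higher ratio than the highest control. Of the summed level per length of the 6 binding proteins, Igfbp4 made up 22.0% to 28.6% in controls of either housing and 13.1% to 15.1% in CBP-ifKOs. Igfbp5 made up 37.4% to 44.1% in SC-housed controls and 53.8% to 61.9% in SC-housed CBP-ifKOs, and 32.7% to 36.9% and 40.6% to 50.8% in EE. The sum itself was 86.0 to 90.5 CPM per kb in SC-housed controls and 78.8 to 89.0 in SC-housed CBP-ifKOs, so the ranges overlapped. Both values come from the transcripts already compared and are given without a test.

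Igfbp6 (chromosome 15, 102144362 to 102149511, plus strand) had 8.46, 7.25 and 7.58 CPM in SC-housed controls and 5.97, 4.50 and 3.76 CPM in SC-housed CBP-ifKOs. The groups did not overlap, and the transcript fell by 0.71 (SE 0.167, adjusted p = 0.0293 from edgeR). The call was lost without control replicate 1 or 3 or CBP-ifKO replicate 2 or 3 of SC, with adjusted p-values between 0.0725 and 0.109. With EE the values were 7.67, 6.02 and 9.50 CPM in controls and 5.78, 5.01 and 7.16 CPM in CBP-ifKOs, where the groups overlapped. The change in EE was -0.36 (SE 0.186, adjusted p = 0.312), and the difference between the changes, 0.34 (SE 0.266), did not pass the interaction test (adjusted p = 1).

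Igfbp2, Igfbp3 and Igfbp7 did not pass edgeR's test in either housing. Igfbp3 (chromosome 11, 7206086 to 7213923, minus strand) had 17.1, 24.8 and 23.6 CPM in SC-housed controls and 14.3, 14.9 and 19.4 CPM in SC-housed CBP-ifKOs. The EE-housed mice had 19.9, 19.8 and 15.4 CPM in controls and 24.0, 13.9 and 15.5 CPM in CBP-ifKOs. Its change was -0.43 (SE 0.145, adjusted p = 0.116 from edgeR) in SC and -0.03 (SE 0.181, adjusted p = 0.949) in EE, or 0.03 in EE without control replicate 1. In SC it passed with DESeq2 (adjusted p = 0.037), without a filter on low counts (0.004) and without control replicate 1 (log2 fold change -0.57, adjusted p = 0.0229).

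Igfbp2 (chromosome 1, 72824503 to 72852474, plus strand) lies 5457 bases from Igfbp5, on the opposite strand. It had 14.8, 13.2 and 19.5 CPM in SC-housed controls and 7.77, 8.99 and 15.0 CPM in SC-housed CBP-ifKOs. The EE-housed mice had 28.01, 8.37 and 16.4 CPM in controls and 25.8, 11.3 and 18.9 CPM in CBP-ifKOs. The highest value belonged to the mouse with the choroid plexus transcripts, and the EE-housed controls spread from 8.37 to 28.01 CPM. The change was -0.57 (SE 0.214, adjusted p = 0.149 from edgeR) in SC and 0.09 (SE 0.359, adjusted p = 0.928) in EE, or 0.60 (adjusted p = 0.34) in EE without that mouse. Without SC-housed CBP-ifKO replicate 3, the SC value was -0.92 with an adjusted p of 0.0188, and it also passed in SC without a filter (0.00193). The summed choroid plexus markers in SC were 55.0 to 60.6 CPM in controls and 40.6 to 45.5 CPM in CBP-ifKOs, and their part in the Igfbp2 values was not tested. Of the 9 markers 7 were tested, with a median log2 fold change of -0.35, and 1 passed, Ttr, which encodes transthyretin. Its mean was 22.7 CPM in controls and 6.97 in CBP-ifKOs (adjusted p = 2.2e-05 from edgeR). The sum had means of 57.7 and 42.5 CPM, a difference about as large as that of Ttr. Kl had 23.9 and 27.8 CPM (log2 fold change 0.22, adjusted p = 0.141). The remaining tested markers had log2 fold changes between -1.10 and -0.28, short of the threshold. Ttr and Kl were named after their values were seen.

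Igfbp7 (chromosome 5, 77349240 to 77408041, minus strand) is strongly expressed by vessels, and 85 of its exonic bases overlap Polr2b on the opposite strand. It had 10.2, 8.91 and 12.2 CPM in SC-housed controls and 9.92, 8.03 and 9.16 CPM in SC-housed CBP-ifKOs. EE-housed mice had 12.5, 8.45 and 11.99 CPM in controls and 14.4, 9.82 and 13.2 CPM in CBP-ifKOs. The change was -0.21 (SE 0.131, adjusted p = 0.412 from edgeR) in SC and 0.19 (SE 0.171, adjusted p = 0.589) in EE, or 0.29 (adjusted p = 0.468) in EE without the library with the choroid plexus transcripts.

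Counted over the family, 3 of the 10 members passed the genotype test in SC, 1 higher (Igfbp5) and 2 lower (Igfbp4 and Igfbp6), where 5.52% of all 17532 genes tested did. In EE 1 member passed, Igfbp4, where 4.57% of 17625 genes did. The groups did not overlap for 4 members in SC (25.9% of all genes) and for 3 in EE (25.3%). The median log2 fold change of the 9 members other than Igf2 was -0.25 in SC against -0.0019 for all genes, and 0.06 in EE against 0.0135. The members were chosen with earlier results of these data known, and Igfbp4 and Igfbp5 are on the study's lists. These counts and medians therefore describe the members and do not test the family.

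**Figure D3:**
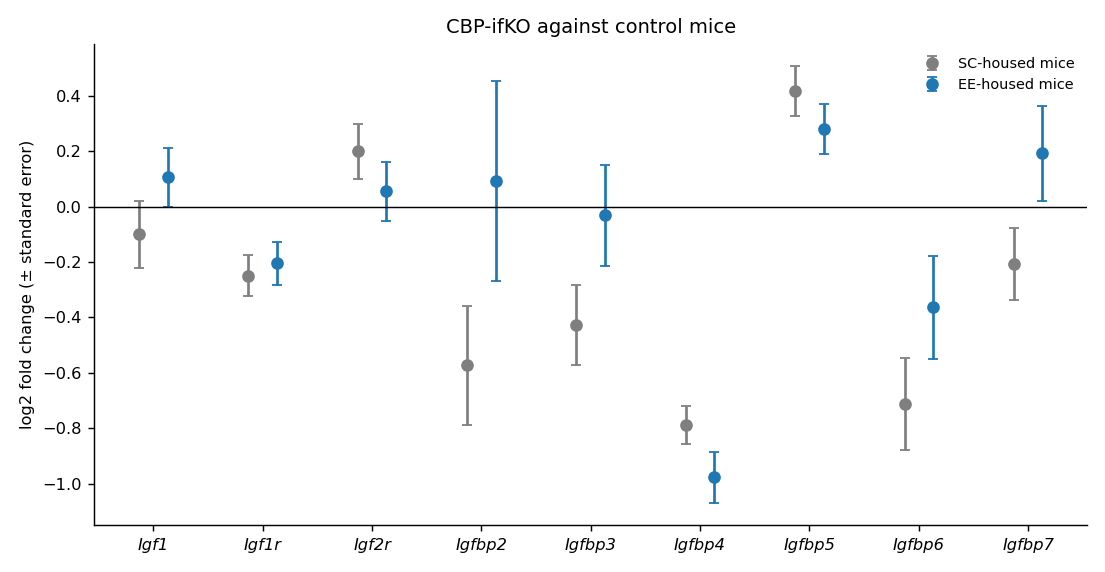
Log2 fold change of CBP-ifKOs against controls for 9 members in SC-housed and in EE-housed mice, with bars of 1 standard error and 3 mice per group. Igf2 is left out because a library is at 0, and Igfbp4 shows the lowest values in both housings.

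Several members varied between mice together with marker sums, Igfbp4 with interneuron markers (Pearson correlation 0.824 over 12 mice), microglia markers (0.749) and astrocyte markers (0.74), and Igf1r with astrocyte markers (0.822). Across the 12 mice, log2 levels of Igfbp3 and the summed level of 7 fibroblast markers had a Pearson correlation of 0.929. Most of that sum is Dcn, with a mean of 90.9 of 144.3 CPM in SC-housed controls, and without Dcn the correlation was 0.673, computed after the values were seen. Those of Igfbp2 and Igfbp7 with 7 mural cell markers had correlations of 0.789 and 0.781, and Igfbp2 and Igfbp7 with each other 0.832. These describe 12 libraries that share groups, depth and dissection, and carry no p. Those of Igf1r, Igfbp2, Igfbp3 (all 7 markers), Igfbp7 and, with interneuron markers, Igfbp4 are the highest of 9 marker lists for each. Igfbp4 had 0.59 with the excitatory neuron markers. With 7 endothelial markers the correlations were lower, at 0.535 for Igfbp2, 0.355 for Igfbp3 and 0.496 for Igfbp7, against 0.612 for Igfbp6. The fibroblast sum ran from 74.9 CPM in SC-housed CBP-ifKO replicate 2 to 189 CPM in EE-housed CBP-ifKO replicate 1, and Igfbp3 was 14.9 and 24.0 CPM in these mice. By group, the mural sum was 287 to 346 CPM in SC-housed controls and 234 to 261 in SC-housed CBP-ifKOs, at 79.3% of the control mean. In EE it was 245 to 283 CPM in controls and 267 to 341 in CBP-ifKOs, at 112.1% of the control mean. The endothelial sum of 7 markers was at 88.1% of control in SC, without overlap, and at 103.4% in EE. The fibroblast sum overlapped between genotypes in both housings, at 70.8% of control in SC and 109.5% in EE. Of the 7 mural markers 1 fell in SC, Rgs5, of pericytes, by 0.35 (adjusted p = 0.0142 from edgeR), and 1 rose in EE, Myh11, of smooth muscle, by 0.94 (adjusted p = 0.0302). The mural median was -0.21 in SC and 0.01 in EE, and Rgs5, Kcnj8 and Abcc9 had -0.05, -0.19 and -0.11 in EE, short of the threshold. Of the 7 fibroblast markers 0 passed in SC and 1 rose in EE, Col1a1, by 0.72 (adjusted p = 0.0393), with medians of -0.31 and 0.71, while Dcn had -0.31 in EE (adjusted p = 0.57). These were named after their values were seen. The sum of 5 oligodendrocyte markers overlapped between genotypes, at 97.6% of control in SC and 103.0% in EE. Each marker of these lists had counts in every library. The part of these cells in the values of Igfbp2, Igfbp3 and Igfbp7 was not tested.

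**Figure D4:**
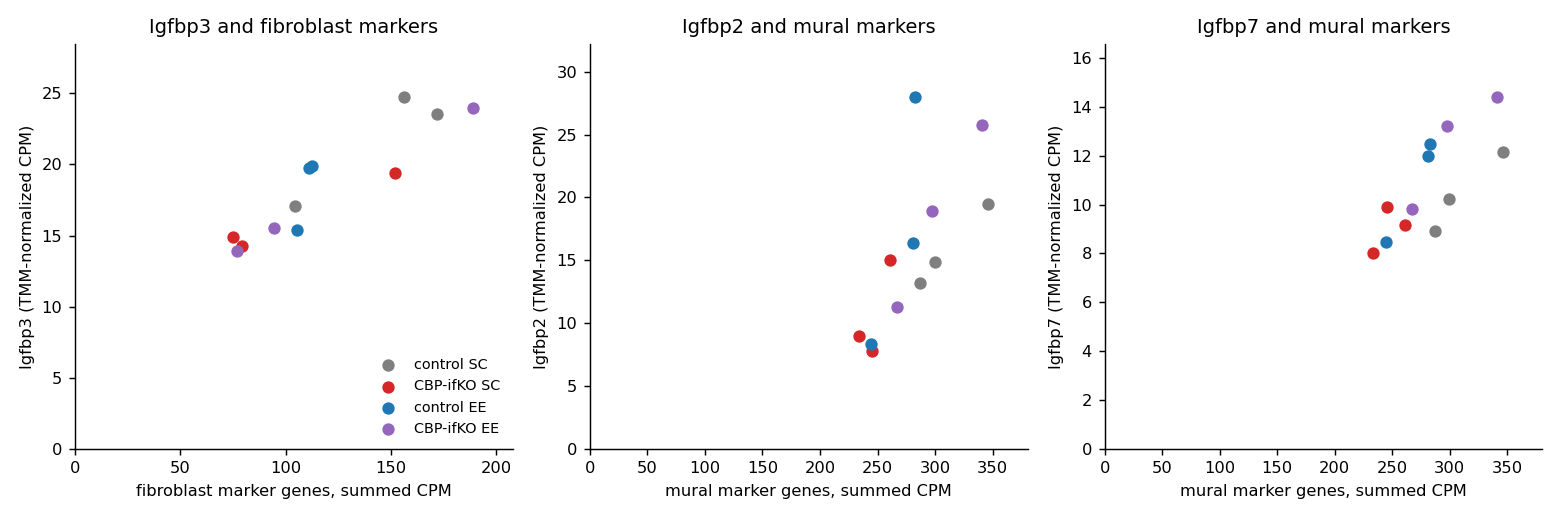
Igfbp3 against the summed CPM of 7 fibroblast markers, and Igfbp2 and Igfbp7 against that of 7 mural cell markers, with 1 point per mouse colored by group. Levels tend to be higher in mice with higher marker sums, with exceptions such as the EE-housed control mouse at 28.01 CPM, which has the highest Igfbp2 level but not the highest mural sum.

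Enrichment asks whether a month of a more varied cage moves the same transcripts. Igfbp5 was lower in EE in both genotypes. From SC to EE its mean went from 219 ± 22.7 to 169.7 ± 24.5 CPM in controls (SD, n = 3), and from 293 ± 34.8 to 205 ± 0.954 CPM in CBP-ifKOs. One EE-housed control, at 197 CPM, lay above the lowest SC-housed control, at 193 CPM, whereas no EE-housed CBP-ifKO reached the lowest SC-housed CBP-ifKO, at 262 CPM. The log2 fold change was -0.37 (SE 0.0999) in controls and -0.51 (SE 0.0992) in CBP-ifKOs, and the difference between them was -0.15 (SE 0.14). The EE-housed control at 197 CPM is the library with the choroid plexus transcripts, and without it the change in controls was -0.49 and the difference -0.03. Averaged over genotypes it was -0.44 (SE 0.0704), and it lay between -0.50 and -0.39 in all 19 alternatives computed. The housing change of Igfbp5 was known when the family was chosen. These values, the standard errors and the range over alternatives included, are therefore a description and carry no test. They use the same SC-housed mice as the genotype values. The mean of EE-housed CBP-ifKOs, 205 CPM, lay within the range of SC-housed controls, 193 to 234 CPM.

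None of the other 9 members passed a housing test of edgeR, in controls, in CBP-ifKOs, averaged over genotypes or for the interaction. The share of all 18251 genes called was 0% in controls, 0.011% in CBP-ifKOs, 0.164% averaged and 0% for the interaction, so calls were rare throughout. Before adjustment, p was below 0.05 for 0 of the 9 members in controls (4.21% of all genes), 2 in CBP-ifKOs (8.59%), 1 averaged (9.44%) and 0 for the interaction (3.15%). The 2 in CBP-ifKOs were Igfbp2, with a log2 fold change of 0.81 (SE 0.354, adjusted p = 0.544), and Igfbp7, with 0.46 (SE 0.164, adjusted p = 0.472). Averaged over genotypes it was Igfbp7, with 0.27 (SE 0.117, adjusted p = 0.489). Groups of the 9 members overlapped between housings in both genotypes, where they did not for 9.11% of all genes in controls and 15.9% in CBP-ifKOs. DESeq2 called 0 of the 9 in these comparisons as well. In controls, Igfbp2 had 0.15 and Igfbp7 0.07, and without the library with the choroid plexus transcripts -0.35 and -0.03. Averaged over genotypes, Igfbp2 had 0.48 with that library and 0.23 without it, and its interaction value was 0.65 with it and 1.16 without it (adjusted p = 1 and 0.995).

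For the ligand and the receptors the housing values were small. Igf1 had log2 fold changes of -0.04 (SE 0.108) in controls and 0.16 (SE 0.105) in CBP-ifKOs, with adjusted p-values of 0.999 and 0.704. Igf1r had -0.12 (SE 0.083) and -0.09 (SE 0.0826), with adjusted p-values of 0.999 and 0.802, and Igf2r 0.08 (SE 0.118) and -0.08 (SE 0.115), with 0.999 and 0.884. Igfbp4, with a clear genotype difference, had 0.11 (SE 0.0853) and -0.09 (SE 0.0869), with adjusted p-values of 0.999 and 0.795.

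**Figure D5:**
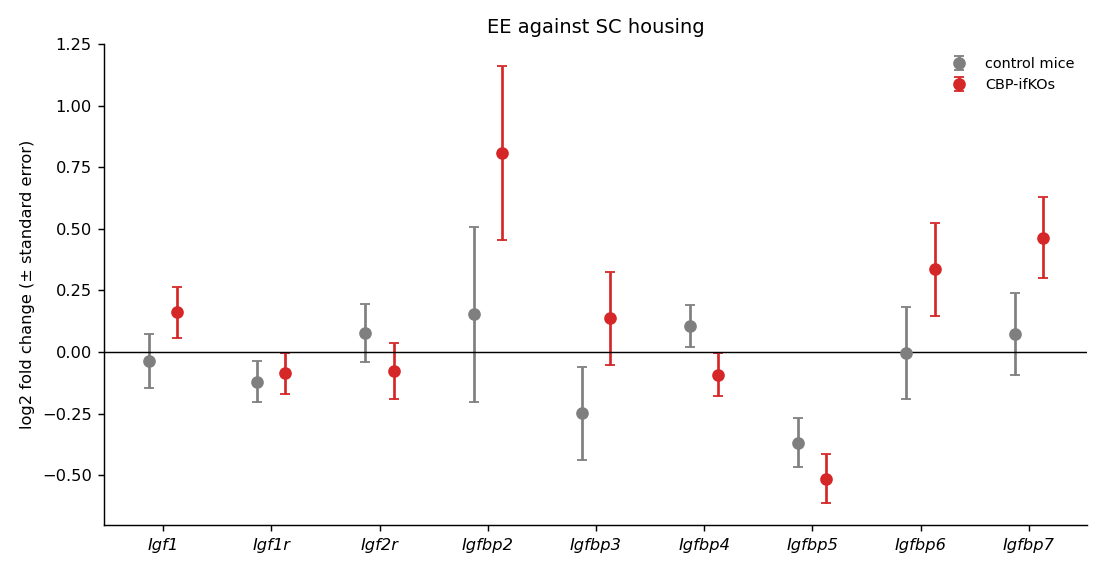
Log2 fold change from SC to EE for 9 members in control mice and in CBP-ifKOs, with bars of 1 standard error and 3 mice per group. Igf2 is left out because a library is at 0, and Igfbp5 lies below 0 in both genotypes.

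Beyond the family, 56 genes of IGF signalling were examined, of which 49 were tested in SC, 48 in EE and 51 for housing. In SC 5 fell and 0 rose (4.02% and 1.51% of all genes). In EE 1 fell and 1 rose (3.53% and 1.03%), and for housing 0 of 51 passed in any of the 4 tests. Their median genotype change was -0.0733 in SC and -0.0778 in EE. Foxo6, a forkhead transcription factor restrained by AKT and expressed in hippocampal neurons, was the gene that passed in both housings. It went from 18.4 ± 5.21 to 10.5 ± 1.48 CPM in SC and from 15.6 ± 0.678 to 9.16 ± 1.32 CPM in EE (SD, n = 3). It fell by 0.82 (SE 0.176, adjusted p = 0.0211 from edgeR) in SC and by 0.76 (SE 0.117, adjusted p = 0.00495) in EE.

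The other signalling genes named here, those that did not pass included, were named after their values were seen. Among proteins that control access to IGFs, Stc1, a stanniocalcin that inhibits PAPP-A, fell by 0.88 in SC (SE 0.16, adjusted p = 0.00885 from edgeR), and the protease Htra1 by 0.33 (SE 0.0602, adjusted p = 0.0088). In EE, Stc1 had -0.53 (adjusted p = 0.129) and Htra1 -0.07 (adjusted p = 0.771). Downstream of the receptor, Akt2, a kinase of the insulin response, fell by 0.32 (adjusted p = 0.021) and Pik3r3, a regulatory subunit of PI3K, by 0.26 (adjusted p = 0.0402) in SC. In EE, Akt2 had -0.36 (adjusted p = 0.0664) and Pik3r3 -0.09 (adjusted p = 0.5). Rps6kb2, an S6 kinase, rose by 0.29 in EE (adjusted p = 0.03) and had 0.24 in SC (adjusted p = 0.146). None of the 12 insulin receptor and adaptor genes tested in SC passed, Insr included, at 0.13 (SE 0.0756, adjusted p = 0.351). Of the 8 access proteins 6 were tested, and the change of Pappa, the protease of IGFBP4, was -0.09 in SC (SE 0.397, adjusted p = 0.927). Its relative Pappa2 had -1.11 in SC (SE 0.458, adjusted p = 0.193) and -0.40 in EE (adjusted p = 0.505).

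For each member the 3 genes with the most similar log2 levels over the 12 mice were listed, as a description without a p, since the mice share groups and libraries. Igfbp4 was most like Ackr2, a scavenging chemokine receptor (Pearson correlation 0.983), Tunar (0.976) and Fyb2 (0.974). Igfbp5 was most like Kansl3 (0.964), Pabpn1 (0.949) and Acad10 (0.947), and Igfbp6 like Rgcc (0.946). Igfbp3 was most like Osr1 (0.952) and Dcn (0.937), which encodes the matrix proteoglycan decorin and is one of the fibroblast markers. Igfbp2 was most like Cdkn1c (0.929), and Igfbp7 like Il18 (0.94). Igf1r was most like the potassium channel gene Kcnc2 (0.946), Igf2r like Srr (0.937), which encodes serine racemase, Igf1 like Gm13003 (0.943), and Igf2, from few counts, like Rab32 (0.92).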

How the data were processed

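Hippocampal RNA of 12 female mice was sequenced (50 bp, single end), in 2 runs per mouse. According to the study's methods and the labels, the authors aligned trimmed reads to mm10 (GRCm38) with STAR 2.6.1, required a mapping quality above 10, and assigned reads to exons of the Ensembl annotation with Rsubread after merging the runs. The deposited values are raw counts for each gene, not normalized. Whether counting used strand is not given in the sources used here. The exonic length of each gene, also in the deposited table, was used for levels per length.

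The main test was the quasi-likelihood F test of edgeR 4.0.16 (R 4.3.3), after edgeR's expression filter and TMM normalization, with Benjamini-Hochberg adjustment over all genes tested at 0.05. Genotypes were compared in the 6 SC-housed and the 6 EE-housed mice separately, and housing, its average and the interaction in all 12 mice with 1 coefficient per group. Levels are CPM of the TMM-scaled library, because the shares of genes higher and lower without overlap were unequal on plain totals. Library totals set the precision of each count, and the floor of 3 counts covers counting error only. Those of CBP-ifKOs overstate the precision if reads were counted 2 times. Correlations used log2 CPM with a prior count of 2. Alternatives were DESeq2 1.42.0, its size factors, other filters, a block for the replicate number, other sets of mice in the fit, CBP-ifKO counts divided by 2, and omission of each mouse. The procedure was tested on simulated data. Upstream sequences come from RefSeq. The 19 bases of the Igfbp5 window that lie inside the Ensembl gene were not printed.

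Named genes are the 10 members, Crebbp, signalling genes past the threshold for genotype in both housings or for housing, the 3 most similar genes of each member, and the markers of excitatory neurons used to check the tissue. For any other gene the text says that it was named after its values were seen. The members and lists were chosen with earlier results of these data known.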

Additional observations from a re-analysis of the deposited data

How the results depend on the processing

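Counts of members past the threshold were compared across alternatives. In SC, 3 members passed, against 5 with DESeq2, 6 without a filter on low counts and 5 with the replicate number as a block, and 1 to 4 when each mouse was left out. In EE, 1 passed, against 2 with DESeq2, 3 without a filter, 2 with the block, and 1 to 2 when each mouse was left out. For housing, 0 of 9 passed, and without a filter there were 2 in CBP-ifKOs, 1 averaged over genotypes and 1 for the interaction, while leaving out each mouse gave 0 throughout. The members added without a filter for housing were Igfbp2 in all 3 tests and Igfbp7 in CBP-ifKOs. That setting tests more genes, 35081 against 18251. For Igfbp2 in CBP-ifKOs the log2 fold change was 0.81 with and without the filter, and the groups overlapped. Its adjusted p from edgeR nevertheless went from 0.544 to 3.15e-11, and the cause was not tested. Calls made only without a filter, those for genotype included, are therefore not read as support. Over all genes, SC calls numbered 968 and EE calls 805, with 399 to 1908 and 285 to 1016 when each mouse was left out. DESeq2 called 1300 and 1296, the unfiltered test 1512 and 1677, and the block 1041 and 1089.

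Igfbp4 passed in both housings under all 14 alternatives of each, with log2 fold changes from -0.82 to -0.72 in SC and from -1.06 to -0.90 in EE. With the replicate block, Igfbp5 passed in EE (adjusted p = 0.0412), and Igfbp2 and Igfbp3 passed in SC (0.00973 and 0.0329). Mice with the same replicate number share only the number. The correlations of their deviations from the group means were between -0.0472 and 0.305, and in each comparison at least 1 was under 0.1, so the block is not read as a pairing. Of the 1050 alternative values of single members, 50 had the opposite sign, in 17 of 60 results, and 0 of these 17 had passed. Igf2 had the fewest counts of the members, 0 to 44 per library, and the spread between mice within a group covered that whole range.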
